A study of Equus caballus with 22 samples.

Results

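Among 5191 horse genes on chromosomes 1 to 31 with at least 500 counts pooled in cartilage and at least 500 pooled in synovium, 990 genes (19.1%) had their most counted 3′ site at a different place in each tissue. A site is a stretch of the genome listed under a gene, where reads from the ends of transcripts pile up. The major site of a gene in a tissue was its site with the highest count pooled over all libraries of that tissue. A gene was taken when its major sites in the tissues did not overlap and lay at least 200 nt apart. The counts of the tissues therefore chose these genes, and every value given below for cartilage against synovium is a description with no test. Of the remaining genes, 4142 had overlapping major sites and 59 had sites less than 200 nt apart. Both tables together list 22613 genes, and 168 further genes with enough counts lie on the X chromosome and were not considered.

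Transcripts are cut and given a poly(A) tail downstream of a signal in the pre-mRNA. Many genes hold several such signals. Use of another signal in the same last exon lengthens or shortens the untranslated region that RNA-binding proteins and microRNAs read. Use of a signal in an intron or in another last exon can also change the protein. The choice among signals is known to differ between tissues.

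The samples were snap-frozen articular cartilage, the tissue that covers the bone ends, and synovium, the lining of the joint capsule, both from the metacarpophalangeal (fetlock) joint. There were 6 young and 6 old cartilage samples and 5 young and 5 old synovium samples. All carry the labels wild type and batch 1, and a label of 4sU treatment of cells that the frozen-tissue protocol does not mention. Ages are given only as young or old, sex was not used here, and the labels do not say whether samples of both tissues came from the same horse, or that replicates are separate animals, so the p-values measure the spread between these samples. Cartilage libraries held 2132898 to 3167402 counts each, and synovium libraries 3499770 to 5664167. The reads come from the QuantSeq-Reverse assay, which primes on the poly(A) tail.

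Genes are named by Ensembl identifiers, since 0 of the 22613 identifiers could be paired with a symbol through the gene table used here. For that reason the lists of chondrocyte, synovial, blood and cleavage-factor genes could not be read, and the tissue labels were not checked against markers. Positions are on EquCab3.0, the horse genome build in the submitters' processing notes. No genome sequence or exon annotation was used here, so poly(A) signals, internal A-rich stretches and the exonic or intronic place of a site were not examined.

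The major sites of the tissues lay a median of 21383 nt apart, with the middle 50% of genes between 2296 and 83063 nt and the farthest pair 1240129 nt apart. Distances under 1000 nt were found for 137 genes (13.8%) and distances from 1000 to under 5000 nt for 199 (20.1%). A further 303 genes (30.6%) had sites from 5000 to under 50000 nt apart and 351 (35.5%) at least 50000 nt. The cartilage site was the more downstream of the pair in 682 genes (68.9%) and the synovium site in 308. This share was similar in each distance class, at 69.3% under 1000 nt, 70.4% from 1000 nt, 70.3% from 5000 nt and 66.7% from 50000 nt. Among the 59 genes with sites less than 200 nt apart, the cartilage site was downstream in 40 (67.8%).

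**Figure D1:**
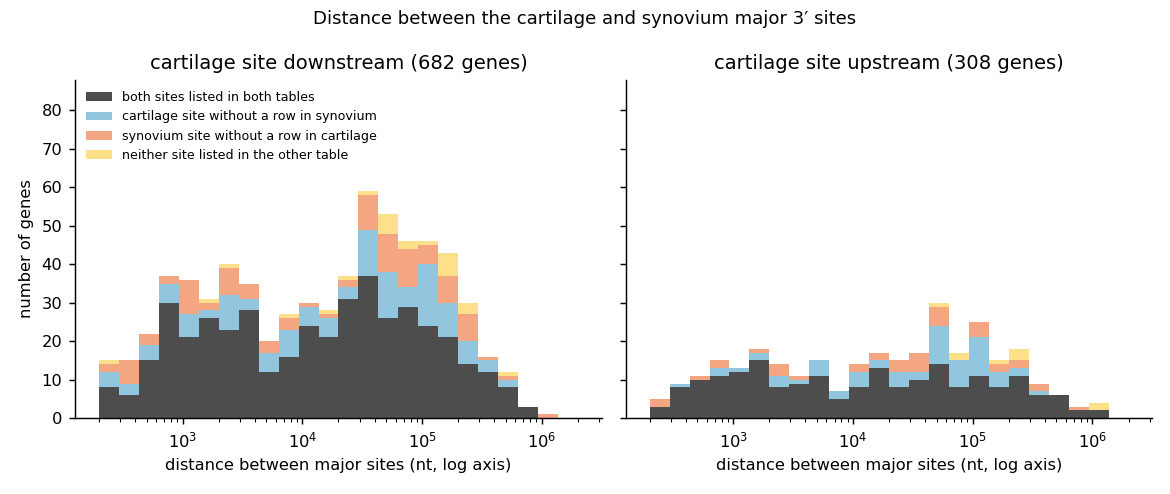
Number of genes by the distance between their cartilage and synovium major sites, in nt on a log axis, with the 682 genes whose cartilage site is downstream on the left and the 308 whose cartilage site is upstream on the right. Colours show whether each site has a row of the same gene in the table of the other tissue, and both panels spread from about the 200 nt minimum to 1240129 nt.

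Counts in these genes were spread over many sites. A member gene listed a median of 19 sites in cartilage and 33 in synovium, against 9 and 15 in the genes with overlapping major sites. The cartilage site held a median of 30.4% of a gene's counts in cartilage (mean share over libraries), where the synovium site held 10.8%. The synovium site held a median of 40.1% in synovium, where the cartilage site held 10.3%. Of the pooled counts, the major site took a median of 32.3% in cartilage and 40.3% in synovium, against 71.6% and 81.8% in genes with overlapping major sites. The site shares were lower in the classes of longer distance. Under 1000 nt the median share of the tissue's own site was 42.7% in cartilage and 48.8% in synovium, and from 50000 nt it was 20.6% and 27.9%.

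The order of the 2 sites within single libraries was then read, counting a library for a gene when it held at least 10 counts of that gene. The cartilage site was the higher in every such cartilage library for 131 genes and in at most 50% of them for 360. In synovium the synovium site was the higher in every library for 515 genes and in at most 50% for 64. Genes that kept the order in every library of both tissues numbered 98 (9.9%). They made up 18.2% of the genes with sites under 1000 nt apart, 10.1% from 1000 nt, 8.91% from 5000 nt and 7.41% from 50000 nt. Where the other tissue's site was not listed, it counted as 0, so any count at the tissue's own site kept the order. The order held in every library for 7 of the 634 genes (1.1%) with both sites listed in both tables. It held for 38.2% of the 34 genes with neither site listed in the other table. A median of 25.2% of the counts at a cartilage site came from a single cartilage library, and a median of 18.0% of those at a synovium site from a single synovium library. For 103 cartilage sites and 3 synovium sites a single library held at least 50% of the counts.

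**Figure D2:**
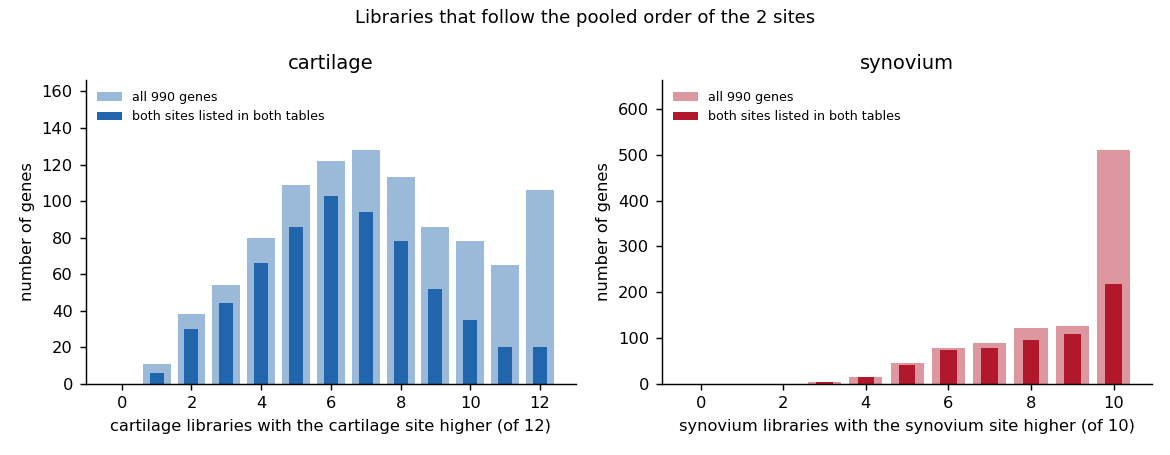
Number of genes by how many libraries of a tissue had the higher count at that tissue's own site, among libraries with at least 10 counts of the gene. Wide bars are all 990 genes and narrow bars the 634 genes with both sites listed in both tables. Cartilage centres on 7 of 12 libraries. A second rise at 12 holds 106 genes, 20 of them with both sites listed in both tables. In synovium 511 genes lie at 10 of 10, of which 218 have both sites listed in both tables.

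By age, the cartilage site was the higher for 64.5 to 66.3% of the genes in a young cartilage library and for 61.3 to 66.3% in an old one. In synovium the synovium site was the higher for 83.8 to 88.8% of genes in young and 84.9 to 89.7% in old libraries. The ages overlapped in synovium. In cartilage 5 of the 6 old libraries lay below every young one, and the ranges overlapped only through old cartilage 1, at 66.3%. The same libraries set the pooled order, each by its own counts, so these shares by age are a description with no test. Over the 634 genes with both sites listed in both tables, the mean was 58.3% in young and 55.95% in old cartilage libraries. There it was 81.0% in young and 82.7% in old synovium libraries. A cartilage library had 0 counts at the cartilage site for 14.9 to 30.2% of the genes, while a synovium library had 0 counts at the synovium site for 0.202 to 1.21%. Picked from young libraries alone, with the count minimum lowered to 250, 1123 of the 5239 genes that met it had differing major sites. From old libraries alone 1019 of 4916 did. The 674 genes in both sets were 60.0% of the young and 66.1% of the old set. A gene could also be missing from a set because it did not meet the count minimum at that age.

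Not every site was listed for both tissues. For 634 genes (64.0%) both sites overlapped a row of the same gene in both tables. The cartilage site had no row of its gene in the synovium table for 222 genes (22.4%), and the synovium site had none in the cartilage table for 168 genes (17.0%), with 34 genes in both counts. Genes with overlapping major sites have such rows by construction, and among the 59 genes with sites less than 200 nt apart 13 cartilage sites and 16 synovium sites lacked one. A site with no row cannot be told from a site with no reads, although the synovium table also lists 13394 rows with 0 counts in all its libraries. Of the 222 cartilage sites without a synovium row, 104 held at least 1000 counts in cartilage and 16 at least 10000. Of the 168 synovium sites without a cartilage row, 100 held at least 1000 counts in synovium and 18 at least 10000. Among the 98 genes that kept the order in every library, 65 cartilage sites lacked a synovium row and 39 synovium sites lacked a cartilage row, and 7 genes had both sites listed in both tables.

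Some of these sites carried counts under a different gene. In both tables, all overlapping rows of different genes lay on opposite strands, where a row of the pair held at least 50 counts (302 pairs in cartilage and 776 in synovium). Of these pairs, 169 (56.0%) in cartilage and 287 (37.0%) in synovium had the same count in every library, and there the counts do not separate the genes. Of the unlisted sites, 32 synovium sites and 6 cartilage sites overlapped such an opposite-strand row with counts in the table that lacked their own. When the rows of any gene at a site were counted, the pooled order of the sites held in 945 of the 990 genes. It was lost only when such rows were counted in 32 genes, 8 of them among the 98 with the same order in every library. The other 13 genes lost it already when all rows of the gene itself that overlap a site were summed.

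The 7 genes that kept the order in every library and had both sites listed in both tables are described first. They were singled out after their values had been seen. In each of them the reads at both ends were measured in both tissues, so the values can be set side by side.

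ENSECAG00000011097 had high counts at both sites in both tissues. It lies on the plus strand of chromosome 5, with the cartilage site from 38650537 to 38650720 and the synovium site 389 nt upstream of it, from 38649815 to 38650148. In young cartilage the cartilage site counted 524 to 2029 (median 1004) and the synovium site 169 to 1185 (median 708). In old cartilage the cartilage site counted 770 to 2694 (median 1332.5) and the synovium site 383 to 1998 (median 877.5). The young synovium libraries counted 608, 2181, 2609, 2658 and 1562 at the cartilage site and 3191, 3952, 4986, 5385 and 6153 at the synovium site. In old synovium these were 9169, 5003, 2743, 1682 and 3697 against 33835, 11591, 8356, 5039 and 8972. The cartilage site thus held 52.4% ± 6.60 of the gene in young and 49.0% ± 7.54 in old cartilage (mean and SD, n = 6 per age), and 27.8% ± 9.06 in young and 26.1% ± 3.59 in old synovium (mean and SD, n = 5 per age). Every cartilage share at this site was above every synovium share, and the ages overlapped within each tissue.

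ENSECAG00000024205 was the gene with the largest contrast among the 7. It lies on the plus strand of chromosome 25, and its cartilage site, from 29664033 to 29664456, is 209 nt downstream of its synovium site, from 29663541 to 29663824. The cartilage site counted 32 to 111 (median 86) in young and 50 to 471 (median 155) in old cartilage. The synovium site had 0 to 4 counts in young and 0 to 20 in old cartilage. In synovium the synovium site counted 10292, 10769, 10262, 14151 and 11990 in young and 68732, 25209, 16431, 9342 and 57755 in old libraries, where the cartilage site counted 4 to 21 in young and 2 to 128 in old. It held 98.9% ± 0.195 of the gene in young and 99.4% ± 0.461 in old synovium (mean and SD, n = 5 per age), against 1.75% ± 4.30 in young and 2.21% ± 3.97 in old cartilage (mean and SD, n = 6 per age). The gene as a whole measured 2826 ± 330 CPM (gene counts scaled to the library total) in young synovium and 36.5 ± 17.9 CPM in young cartilage. In bulk tissue such a level does not tell fewer cells of a type from less RNA per cell.

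ENSECAG00000009336 had its ends 101115 nt apart on the plus strand of chromosome 17, with the cartilage site from 68009585 to 68009636 and the synovium site upstream, from 67908133 to 67908470. The cartilage site counted 87 to 213 (median 161) in young and 107 to 206 (median 133.5) in old cartilage, and from 1 to 3 in the synovium libraries of either age. The synovium site counted 157, 121, 138, 39 and 144 in young and 185, 119, 64, 150 and 158 in old synovium. Its share was 69.7% ± 12.5 in young and 79.1% ± 8.53 in old synovium (mean and SD, n = 5 per age), and 4.76% ± 7.83 in young and 11.9% ± 10.7 in old cartilage (mean and SD, n = 6 per age). The tissues did not overlap at either site.

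In ENSECAG00000023280, on the plus strand of chromosome 12, the cartilage site was the upstream one. It runs from 25298251 to 25298362, and the synovium site 472 nt further on from 25298834 to 25299056. The cartilage site held 86.1% ± 21.3 of the gene in young and 97.3% ± 5.93 in old cartilage (mean and SD, n = 5 per age, since 1 library of each age had no counts of the gene). In synovium it held 21.8% ± 4.39 in young and 23.6% ± 3.66 in old libraries (mean and SD, n = 5 per age). The cartilage values rest on 603 counts in all and the synovium values on 11653.

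ENSECAG00000022471 lies on the minus strand of chromosome 5. Its cartilage site, from 4778861 to 4778978, is 830 nt downstream of its synovium site, from 4779808 to 4780604. The cartilage site counted 316 to 483 (median 387.5) in young and 101 to 386 (median 219) in old cartilage. In synovium it counted 114, 273, 236, 181 and 68 in young and 94, 197, 52, 106 and 107 in old libraries. The synovium site held 56.6% ± 5.44 in young and 63.4% ± 9.71 in old synovium (mean and SD, n = 5 per age). In young cartilage it held 0.977% ± 1.52 (SD, n = 6), and in old cartilage 0 of 1380 counts, which allows a share of up to 0.217%. This limit takes in only the error of counting, as molecular identifiers are not among the labels. Synovium thus counted reads at both ends of this gene, whereas cartilage counted nearly all at the downstream one.

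In ENSECAG00000020180, on the minus strand of chromosome 4, the cartilage site from 59857902 to 59858380 lies 1656 nt upstream of the synovium site, from 59856119 to 59856246. The cartilage site counted 553 to 1250 (median 838) in young and 501 to 1086 (median 833) in old cartilage, against a total of 2 counts over the 10 synovium libraries. The synovium site counted 182, 115, 78, 91 and 177 in young and 130, 64, 112, 82 and 214 in old synovium. It held 22.4% ± 6.81 of the gene in young and 26.5% ± 8.80 in old synovium (mean and SD, n = 5 per age), so most of the synovium counts of this gene lay at neither end.

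ENSECAG00000019940 lies on the minus strand of chromosome 1, with the cartilage site from 171700982 to 171701036 and the synovium site 218361 nt upstream, from 171919397 to 171919835. The cartilage site held 85.8% ± 11.0 in young and 83.4% ± 11.4 in old cartilage (mean and SD, n = 6 per age), and 1.87% ± 2.31 in young and 0.308% ± 0.449 in old synovium (mean and SD, n = 5 per age). The synovium site held 13.8% ± 6.75 in young and 25.7% ± 4.83 in old synovium (mean and SD, n = 5 per age), from 44, 42, 56, 9 and 36 counts in young and 54, 39, 24, 40 and 62 in old libraries. In cartilage it had 3 counts over all 12 libraries, which was 3 of 2667 counts of the gene.

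**Figure D3:**
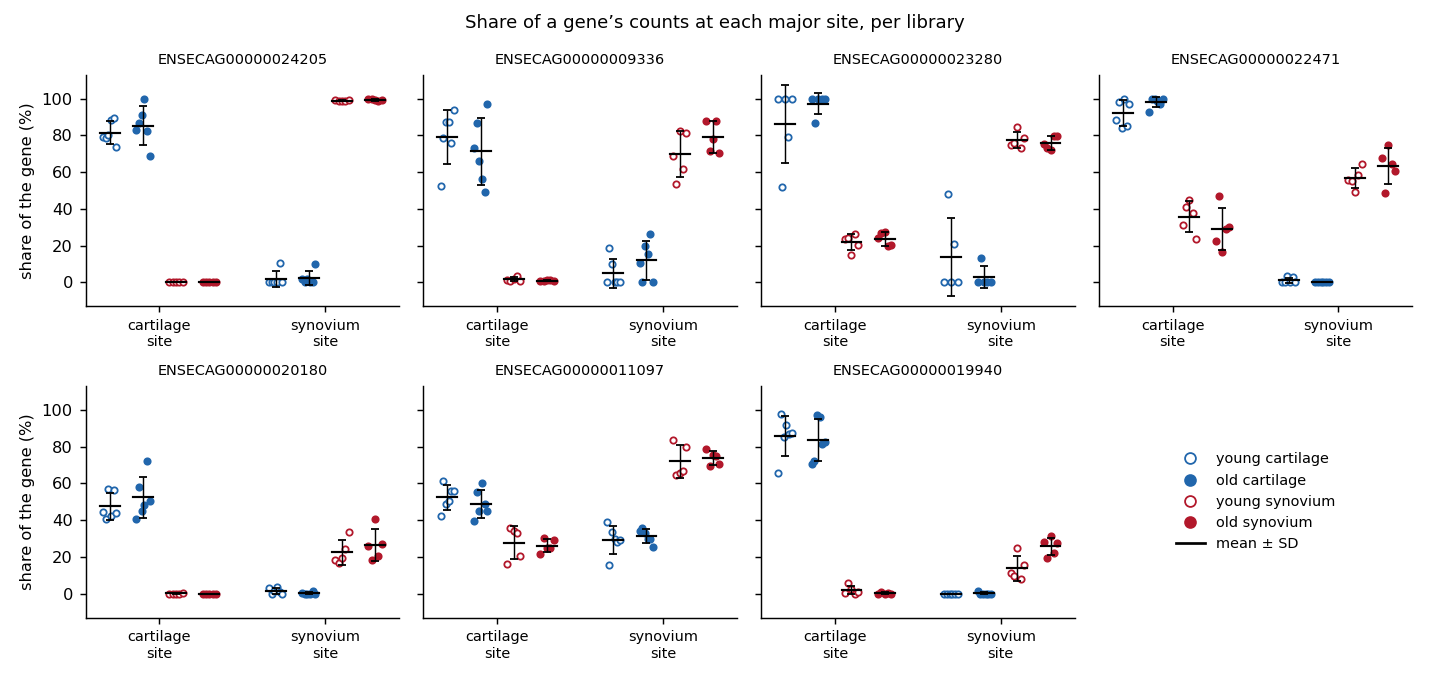
Percent of the counts of a gene that fell on the cartilage site or the synovium site in each library, for the 7 genes with the same order in every library and both sites listed in both tables. Points are libraries (blue cartilage, red synovium, open young, filled old), lines are the mean and bars the SD. Blue points lie above red ones at each cartilage site and below them at each synovium site.

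The 12 genes with the strongest opposition of the sites, among those with the same order in every library, were ranked by the smaller of the share differences between a tissue's own site and the other site in that tissue. This difference ran from 75.3 to 94.6 percentage points. ENSECAG00000024205, described above, was the only one of the 12 with both sites listed in both tables. For 5 of the 12 the cartilage site had no row in synovium, for 4 the synovium site had no row in cartilage, and for 2 neither site had a row in the other table.

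ENSECAG00000024095 had the most counts of all 990 genes. Its cartilage site lies on the minus strand of chromosome 19 from 56723983 to 56724119, 801 nt downstream of its synovium site, from 56724920 to 56725300. The cartilage site counted 15806 to 23005 (median 17885.5) in young and 12964 to 28436 (median 24509.5) in old cartilage, which was 99.3% ± 0.311 and 99.3% ± 0.204 of the gene (mean and SD, n = 6 per age). The synovium site counted 22 to 187 in young and 53 to 259 in old cartilage, and 48, 176, 154, 185 and 83 in young and 219, 178, 184, 162 and 156 in old synovium. The counts at the upstream end lay in overlapping ranges in both tissues, while the downstream end, with 244022 pooled counts in cartilage, had no row in the synovium table.

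In 4 more genes the cartilage site was the one without a row in the synovium table. ENSECAG00000036766 on chromosome 1 (cartilage site from 116663496 to 116663681, plus strand, 330 nt upstream of the synovium site) counted 2066 to 3505 at the cartilage site in young and 1436 to 2951 in old cartilage. Its synovium site, from 116664011 to 116664229, counted 107 to 285 in young and 110 to 237 in old cartilage, and 168 to 314 in young and 315 to 454 in old synovium. ENSECAG00000011479 on chromosome 1 (cartilage site from 67102021 to 67102139, plus strand, 504 nt downstream) held 86.1% ± 7.86 of its counts at the cartilage site in young and 88.3% ± 6.81 in old cartilage (mean and SD, n = 6 per age). ENSECAG00000021816 on chromosome 30 (from 30247979 to 30248110, minus strand, 444 nt downstream) held 82.2% ± 6.82 and 85.6% ± 3.30 there (mean and SD, n = 6 per age). ENSECAG00000015550 on chromosome 7 (from 43326547 to 43326671, minus strand, 609 nt downstream) held 91.3% ± 12.9 and 87.0% ± 8.07 (mean and SD, n = 6 per age). At its synovium site the 450 counts in cartilage and the 834 in synovium also stood under ENSECAG00000018370 on the opposite strand.

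In 4 genes it was the synovium site that lacked a cartilage row. ENSECAG00000020679 on chromosome 6 had its synovium site from 74747328 to 74747436 on the plus strand, 5416 nt upstream of the cartilage site. It counted 4154, 5311, 6725, 5484 and 3947 in young and 7869, 5178, 5341, 4308 and 7342 in old synovium, or 94.2% ± 2.11 and 95.7% ± 0.661 of the gene (mean and SD, n = 5 per age). Its cartilage site, from 74752852 to 74753687, was listed in both tables and counted 164 to 480 in young and 162 to 270 in old cartilage, against 73 to 212 in young and 79 to 177 in old synovium. ENSECAG00000031163 on chromosome 14 held 90.7% ± 3.74 of its counts in young and 82.4% ± 14.9 in old synovium (mean and SD, n = 5 per age) at its synovium site, from 35515765 to 35515872 on the plus strand. At its cartilage site, 14316 nt upstream from 35501340 to 35501449, the synovium table gave 1548 counts to this gene and 9133 to ENSECAG00000023131 on the opposite strand. There the cartilage table gave 1218 counts to ENSECAG00000031163 and 16338 to ENSECAG00000023131. Which gene these counts belong to was not tested.

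For the other 2 of these 4 genes the cartilage table gave counts at the synovium site to a gene on the opposite strand. In ENSECAG00000020430, on the minus strand of chromosome 1, the synovium site from 20623063 to 20623183 held 93.4% ± 1.49 of the gene in young and 91.4% ± 1.10 in old synovium (mean and SD, n = 5 per age) and had no row in cartilage. The cartilage table gave 11889 counts at that place to ENSECAG00000020935 on the opposite strand, more than the 1519 at the cartilage site, from 20622013 to 20622123. In synovium that opposite-strand gene had 0 counts there, against 23855 of ENSECAG00000020430. In ENSECAG00000022786, on the minus strand of chromosome 5, the synovium site from 39300561 to 39300674 held 82.7% ± 6.24 of the gene in young and 81.2% ± 4.73 in old synovium (mean and SD, n = 5 per age). The cartilage table gave 1541 counts there to ENSECAG00000007495 on the opposite strand, against 1521 at the cartilage site, from 39300077 to 39300194. In synovium both genes had 1227 counts there. Which gene the cartilage counts belong to was not tested. With those rows counted, the pooled order of the sites in cartilage turned round in both genes.

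The pair with neither site in the other table were ENSECAG00000019763 on chromosome 13 and ENSECAG00000009946 on chromosome 11, both on the plus strand. In ENSECAG00000019763 the cartilage site, from 20966888 to 20967003, held 98.5% ± 3.64 of the gene in young and 98.1% ± 3.10 in old cartilage (mean and SD, n = 6 per age). Its synovium site, 2180 nt upstream from 20964598 to 20964708, held 92.4% ± 4.66 in young and 93.2% ± 3.15 in old synovium (mean and SD, n = 5 per age). The cartilage table gave 1619 counts at the synovium site to ENSECAG00000007301 on the opposite strand, which left the cartilage site, with 2541, the higher. In synovium both genes had 1891 counts at the synovium site. Which gene these counts belong to was not tested. In ENSECAG00000009946 the cartilage site, from 1184373 to 1184488, is 250 nt downstream of the synovium site, from 1184007 to 1184123. The cartilage site counted 28 to 167 in young and 0 to 112 in old cartilage, and the synovium site counted 85, 37, 65, 74 and 50 in young and 56, 24, 55, 52 and 67 in old synovium.

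**Figure D4:**
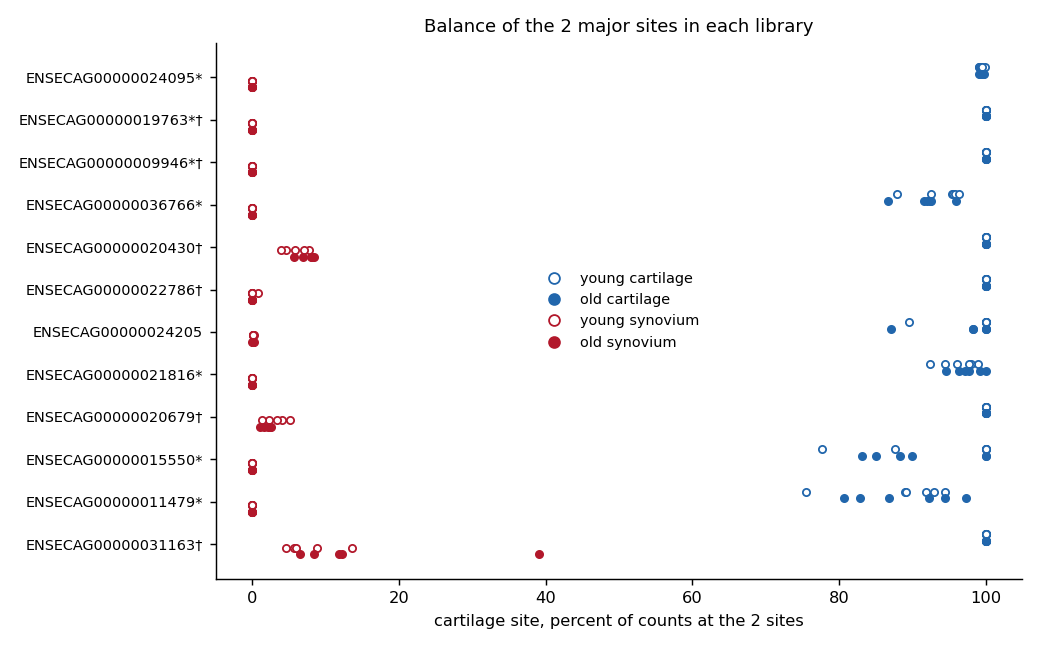
For the 12 genes with the strongest opposition, the percent of counts at the 2 sites that fell on the cartilage site in each library. Points are libraries, blue cartilage and red synovium, open young and filled old. An asterisk marks a cartilage site without a row in synovium and a dagger a synovium site without a row in cartilage, where the value is fixed at 0% or 100% by the missing row.

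Other members rested on few counts. The 2 genes whose major site depended most on 1 library were ENSECAG00000023200 and ENSECAG00000006043. In ENSECAG00000023200, on the minus strand of chromosome 2, the cartilage site from 17125443 to 17125552 had 93 counts in old cartilage 2 and 0 in the other 11 cartilage libraries. In ENSECAG00000006043, on the plus strand of chromosome 19, the cartilage site from 12893123 to 12893229 had 81 counts in old cartilage 5 and 0 in the other 11. The gene with the greatest distance, ENSECAG00000005001 on the plus strand of chromosome 20, had its ends 1240129 nt apart. Its cartilage site, from 59124799 to 59124929, held 24.5% ± 18.8 of the gene in cartilage (SD, n = 12) and 3.76% ± 1.09 in synovium (SD, n = 10), and its synovium site, from 57884448 to 57884670, held 9.24% ± 3.54 in synovium and had no row in cartilage.

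At the 200 nt minimum, the nearest members were ENSECAG00000008307 on chromosome 2, with sites 201 nt apart, and ENSECAG00000024205 with 209 nt. In ENSECAG00000008307 the cartilage site, from 41353727 to 41354163 on the plus strand, was the higher in 4 of 12 cartilage libraries, and the synovium site, from 41354364 to 41354484, in 6 of 10 synovium libraries. Just outside lay ENSECAG00000013246 on chromosome 15, with sites 198 nt apart that held 41.7% of the pooled cartilage counts and 42.0% of the pooled synovium counts, and ENSECAG00000038335 on chromosome 6, with sites 193 nt apart that held 44.5% and 70.8%.

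The age labels were not used to choose the genes, and old and young libraries were compared within each tissue. The major sites were chosen on counts pooled over both ages, so a site high at a single age could enter. The test of site use is therefore not independent of the choice. The question was whether genes whose ends differ between tissues also differed with age in their level or in the use of those ends. Gene counts were summed over all sites and tested over all genes with edgeR's quasi-likelihood test, and 0 members passed a Benjamini-Hochberg adjusted p of 0.05 in either tissue, against 0% of the 8752 genes tested in cartilage and 0% of the 11370 in synovium. All 990 genes passed the filter on low counts in both tissues. At an unadjusted p under 0.05 there were 44 members in cartilage (4.44%, against 3.09% of all genes tested), of which 17 were higher (1.72%, against 1.89%) and 27 lower in old (2.73%, against 1.2%). In synovium there were 70 (7.07%, against 6.91%), of which 16 were higher (1.62%, against 2.57%) and 54 lower (5.45%, against 4.34%). All members held at least 500 pooled counts, a minimum not set for the other genes tested. With at least 10 counts required in every cartilage library, 6.89% of 610 members passed the unadjusted threshold, against 6.28% of 4217 genes. Of the 610 members 2.3% were higher and 4.59% lower in old cartilage, against 3.72% and 2.56% of those genes. With DESeq2's size factors in place of TMM scaling the synovium split turned to 35 higher and 21 lower, and that of all genes to 486 and 273, as this scaling moved the median log2 change of all synovium genes from -0.0527 to 0.0592 and that of the members to 0.0169. With a library left out, the cartilage count was lowest at 28 without young cartilage 1 (13 higher and 15 lower). It was highest at 62 without old cartilage 2 (13 higher and 49 lower). These were 2.83% and 6.26% of the members, against 2.51% and 3.76% of all genes. The synovium count was 26 without young synovium 1, 44 without young synovium 2, 112 without young synovium 3, 106 without young synovium 4 and 28 without young synovium 5. It was 32 without old synovium 1 and 113 without old synovium 2. More members were higher than lower without young synovium 1 (23 and 3), young synovium 2 (30 and 14), young synovium 5 (17 and 11) or old synovium 4 (35 and 23), so the direction in synovium turned with single libraries. The median log2 change of the members was -0.0882 in cartilage and -0.0984 in synovium, beside -0.000734 and -0.0527 over all genes.

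The member with the lowest p in cartilage was ENSECAG00000036088 on the plus strand of chromosome 22, whose cartilage site (from 35296846 to 35296966) is 2835 nt downstream of its synovium site (from 35293900 to 35294011). It measured 208 to 733 CPM (median 424) in young and 532 to 1627 CPM (median 1023) in old cartilage, where CPM is scaled by the TMM factor. The groups overlapped. The log2 difference was 1.23 (standard error 0.32, edgeR, adjusted p = 1.00), and the adjusted p ranged from 0.0449, in DESeq2, to 1.00 over 17 alternatives. ENSECAG00000008099 on the minus strand of chromosome 14 (cartilage site from 92476638 to 92476757, synovium site from 92542843 to 92542955) measured 56.2 to 125 CPM in young and 85.7 to 434 CPM in old cartilage, a log2 difference of 1.23 (standard error 0.39, edgeR, adjusted p = 1.00, from 0.162 to 1.00 over 17 alternatives).

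In synovium the lowest p among members belonged to ENSECAG00000024205, the gene whose synovium site took nearly all synovium counts. The young libraries measured 2353, 2350, 2716, 3473 and 3112 CPM and the old ones 13690, 6695, 4141, 2537 and 12790 CPM. All old libraries but 1 were above every young one. The log2 difference was 1.51 (standard error 0.39, edgeR, adjusted p = 0.631), and the adjusted p ranged from 0.00556, in DESeq2, to 1.00 over 15 alternatives. Its synovium site held 98.9% in young and 99.4% in old synovium. ENSECAG00000022741 on the minus strand of chromosome 15 (cartilage site from 61099730 to 61099843, synovium site from 61100668 to 61100782) measured 9.70 to 12.7 CPM in young and 17.0 to 33.6 CPM in old synovium, with no overlap between the ages (log2 change 1.03, standard error 0.28, edgeR adjusted p = 0.631, from 0.369 to 1.00 over 14 alternatives). DESeq2's Wald test called 1 member in cartilage (0.101%, against 0.137% of all genes), which was ENSECAG00000036088 (adjusted p = 0.0449). In synovium it called 2 (0.202%, against 0.58%), ENSECAG00000024205 (0.00556) and ENSECAG00000011097 (0.0278), named here after their values were seen.

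**Figure D5:**
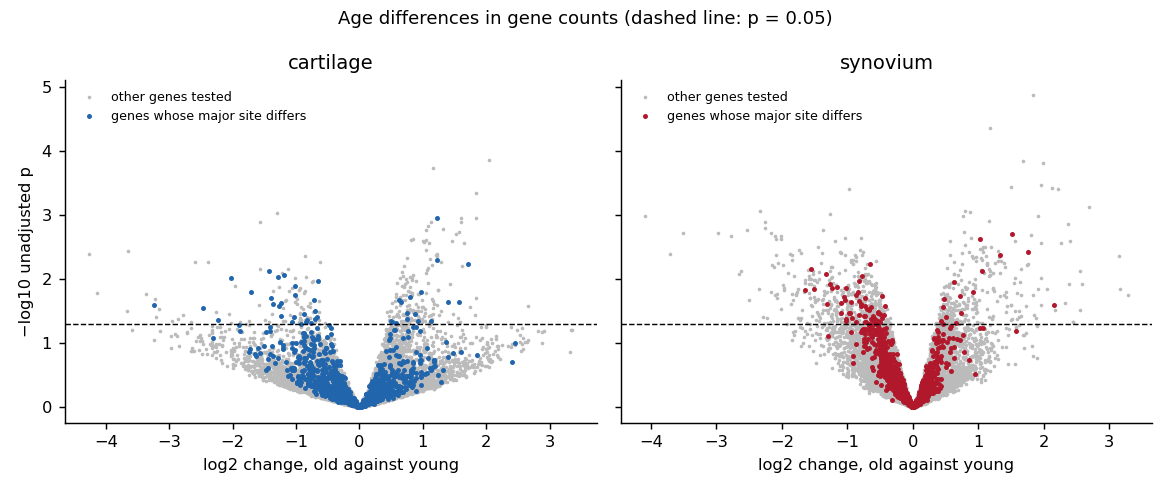
Log2 change of gene counts in old against young libraries (horizontal) and −log10 of the unadjusted edgeR p (vertical), with cartilage on the left and synovium on the right. Coloured points are the 990 genes whose major site differs between tissues and grey points the other genes tested. The coloured points lie within the cloud of the grey ones, and 44 in cartilage and 70 in synovium are above the dashed line at 0.05.

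Use of the ends was tested with edgeR's diffSpliceDGE, which asks whether a site changed relative to the rest of its gene. The cartilage site could be tested in cartilage for 545 members and the synovium site in synovium for 856, since the other sites failed the filter on low counts or were the only filtered site of their gene. With rows at the other tissue's site, 967 rows were tested in cartilage and 1428 in synovium, and 0 passed an adjusted p of 0.05, as did 0% of the 8211 and 16100 sites tested in all. At an unadjusted p under 0.05 there was 1 such row in cartilage (0.103%, against 0.183% of all sites tested). It was used less in old (0.146% of all sites were), and 0 member rows were used more (0.0365% of all). In synovium there were 13 (0.91%, against 1.43%), of which 6 were used more in old (0.42%, against 0.292%) and 7 less (0.49%, against 1.14%). With single libraries left out there were 1 to 5 such rows in cartilage and 4 to 21 in synovium, with 5 without young synovium 1, 4 without young synovium 5, 5 without old synovium 1 and 21 without old synovium 5. With limma-voom, 50 rows in cartilage (5.17%, against 5.29% of all sites) and 84 in synovium (5.88%, against 4.84%) had an unadjusted p under 0.05. Over all sites diffSpliceDGE gave fewer p under 0.05 than that threshold passes when nothing changes. Its 0 calls therefore do not show that use of the ends stayed the same with age.

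The row in cartilage was the cartilage site of ENSECAG00000007770, on the plus strand of chromosome 23 from 1257669 to 1257782, which is 30999 nt downstream of the synovium site (from 1226371 to 1226670). It counted 231, 198, 215, 197, 72 and 72 in the young libraries and 29, 0, 18, 0, 0 and 0 in the old. Its share was 38.9% ± 8.95 in young and 4.64% ± 7.29 in old cartilage (mean and SD, n = 6 per age), with no overlap, and its log2 change relative to the gene was -2.76 (edgeR, adjusted p = 1.00, from 0.444 to 1.00 over 16 alternatives). The cartilage site was thus the major one in cartilage through the young libraries, so its age contrast is not independent of how the site was chosen. This site had no row in synovium. The next lowest p belonged to the row at the synovium site of ENSECAG00000017901, on the minus strand of chromosome 14 from 37774726 to 37774872. It held 27.1% ± 11.1 in young and 1.44% ± 3.51 in old cartilage (mean and SD, n = 6 per age), where old cartilage 1 gave all 13 counts (edgeR, adjusted p = 1.00, from 0.546 to 1.00 over 16 alternatives).

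In synovium the lowest p values were at cartilage sites. ENSECAG00000011530 on the plus strand of chromosome 5 had its cartilage site 276 nt downstream of its synovium site (from 52403761 to 52403867). The row at the cartilage site, from 52404141 to 52404287, counted 608, 260, 141, 238 and 524 in young and 171, 44, 245, 204 and 180 in old synovium. Its share was 23.3% ± 13.7 in young and 10.9% ± 4.53 in old synovium (mean and SD, n = 5 per age), with overlapping ages (log2 change relative to the gene -0.97, edgeR adjusted p = 1.00, from 0.65 to 1.00 over 15 alternatives). In ENSECAG00000023723 on the plus strand of chromosome 21 the row at the cartilage site, from 17654290 to 17654415, held 32.5% ± 12.5 in young and 18.1% ± 7.36 in old synovium (mean and SD, n = 5 per age). Its log2 change was -0.92 and the ages again overlapped (edgeR, adjusted p = 1.00, from 0.65 to 1.00 over 15 alternatives).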

How the data were processed

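Libraries of 3′ ends were made from cartilage and synovium of horses labelled young or old. The authors deposited 1 table of raw counts per tissue, with gene, chromosome, start, end, strand and length of each site, per the file headers. The aligner, the counter, the site calling and the annotation are not given in the sources used here. Sites differ in their boundaries between the tables, so a site was matched to every overlapping row of the same gene. Groups came from the sample titles, and 0 sample columns were unused. The genes, lists and tests were chosen with earlier results of these data known.

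Age was tested in each tissue alone with edgeR 4.0.16 in R 4.3.3 (robust quasi-likelihood fit, TMM, filterByExpr with minimum count 10 and minimum total 15, Benjamini-Hochberg at 0.05), on gene sums and, with diffSpliceDGE, on sites of genes with at least 2 filtered sites. Its natural-log coefficients were converted to log2. DESeq2 1.42.0 and limma 3.58.1 were alternatives. Python 3.11.15, pandas 2.3.3 and Matplotlib 3.10.9 were used for the rest. Both fits were tested on simulated counts with 200 features changed 8-fold, at a fixed dispersion (spread between libraries) of 0.05. They recovered 100% of these changes. There were 15 false calls among genes and 18 among sites in cartilage, and 5 and 23 in synovium. A false call among sites was a call in a gene with no changed site. The changed features were not among those of lowest count, and the changed sites held a small share of their gene, unlike many major sites. The median log2 change recovered was 2.99 for genes and 2.2 for sites in cartilage, and 2.98 and 2.3 in synovium. Smaller changes and the wider spread of sparse sites were not simulated, so this does not show what the fits can find in these data.

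Named genes are the 12 of strongest opposition with the same order in every library, the 2 of lowest p in each age test, those nearest the 200 nt minimum, those of most counts, greatest distance and most dependence on 1 library, and 7 chosen after their values were seen.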

Additional observations from a re-analysis of the deposited data

Results flagged for a closer look

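In 12 of 102 sets of 5 or 6 values of a group, 1 library lay well apart from its neighbours. For normally distributed values chance marks about 1 group in 20, or 5.1 here. Shares that stand at 0% or 100% in most libraries, as in ENSECAG00000019763, are not so distributed. The 12 sets are therefore not read as an excess. In young cartilage 2 the share of the gene at the cartilage site was 91.1% for ENSECAG00000019763 (the other libraries at 100%), 82.6% for ENSECAG00000036766 (nearest 91.2%), 18.2% for ENSECAG00000031163 (nearest 96.9%) and, as the highest, 75.9% for ENSECAG00000008307 (nearest 20.9%). In young cartilage 1 the share at the cartilage site of ENSECAG00000011479 was 70.5% (nearest 86.6%). In old cartilage the share at the cartilage site was 90.8% for ENSECAG00000022786 in replicate 3 (nearest 96.6%), 52.1% for ENSECAG00000031163 in replicate 5 (nearest 85.0%) and 67.3% for ENSECAG00000008307 in replicate 4 (nearest 4.25%), and the row of ENSECAG00000017901 at its synovium site held 8.61% in replicate 1 and 0% in the others. In old synovium 2 the share at the synovium site was 46.1% for ENSECAG00000015550 (nearest 79.8%) and 56.2% for ENSECAG00000031163 (nearest 85.7%). In young synovium 4 the synovium site of ENSECAG00000006043 held 0% (nearest 12.5%).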

How the results depend on the processing

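The number of genes with differing major sites was 1600 of 6826 eligible genes with at least 200 pooled counts and 570 of 3578 with at least 1000, beside the 990 of 5191. It was 288 of 5191 when each major site also had to be the top site in more than 50% of its tissue's libraries. It was 634 with both sites listed in both tables. The share with the cartilage site downstream was 63.1% at 200 counts and between 67.7 and 71.5% under the other rules. The median distance was 34470 nt with sites at least 1000 nt apart, 6412.5 nt with the majority rule and 15224.5 nt with both sites listed. With each library left out in turn there were 922 to 986 genes, 67.1 to 70.7% and 19489.5 to 22059 nt. The alternatives on listing and on rows of other genes were chosen after seeing the data. For age, DESeq2 called 12 genes in cartilage (1 member) and 66 in synovium (2 members). In synovium edgeR called 1 gene with at least 10 counts in every library, 3 with no filter and 0 to 5 leaving out 1 library, the most without old synovium 4, then 3 without old synovium 2 and 1 without young synovium 2. None of these was a member. Among synovium sites, limma-voom called 1 and diffSpliceDGE with no filter 2, none at a member's major site. The cause of these differences was not tested. The deviations of same-numbered young and old libraries had correlations between -0.0592 and 0.074 for cartilage. For synovium these lay between -0.102 and 0.344, the highest for number 2. The labels do not say that a number marks a shared animal, so the numbers were not taken to pair the samples. With the replicate block 0 genes and 0 sites were called in either tissue, and 32 members in cartilage and 62 in synovium had an unadjusted p under 0.05 (3.23% and 6.26%, against 3.01% and 6.83% of all genes), beside 44 and 70 without it. In cartilage 1 and in synovium 1 young library correlated best with the old library of its own number. No named age change turned its direction. Low counts in cartilage limit the reading of single sites there.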
